A study of Mus musculus with 4 samples.

Results

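The heterochromatin silencing machinery was followed here through 10 genes: Trim28, Setdb1, Atf7ip, Ehmt2, Suv39h1, Cbx1, Cbx3, Cbx5, Dnmt1 and Uhrf1. They were chosen by symbol and not by a cut on their values, though with earlier results of these data known. All 10 were among the 18298 genes listed with a read in at least 1 sample. RNA came from cultured rib chondrocytes of C57BL/6 embryos at E18.5, grown to passage 1, in 2 Mut samples (Dermo1-Cre;Senp6f/f) and 2 WT samples (Senp6f/f without Cre), so that both groups carried the floxed Senp6 allele. Dermo1-Cre is driven from the Twist2 locus, which is active in skeletal progenitors and other mesenchyme, and removes a part of Senp6, the gene of a protease that trims SUMO2/3 chains from proteins. The series counts its samples as mice, and whether cells of several embryos were pooled is not given in the sources used here, so the p-values measure the spread between these samples.

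TRIM28, also called KAP1, is a scaffold that KRAB zinc finger proteins bring to DNA. SUMO attached to its bromodomain recruits SETDB1, which methylates lysine 9 of histone H3, and the NuRD deacetylase complex. HP1 proteins bind that methylated lysine, and UHRF1 with DNMT1 copies DNA methylation to new strands after replication, so that retroviral elements and germline genes stay silent in somatic cells. The comparison asks whether the messenger RNA of TRIM28 and of its silencing partners differed between Mut and WT chondrocytes.

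The samples held 21.02 M to 30.99 M reads on genes. The chondrocyte list was expressed in every sample, with all 12 of its genes tested. All 12 lay lower in both Mut samples than in both WT samples, a pattern found in 19.2% of all tested genes. The summed level of the list was 1030 and 1015 RPKM (reads per kilobase of gene length, scaled to the total reads of the sample) in WT replicates 1 and 2. It was 513 and 645 RPKM in Mut replicates 1 and 2, and most of it came from Col2a1 and Col11a1. The striated muscle list, led by Acta1 and Des, summed to 101 and 35.8 RPKM in WT and 183 and 202 RPKM in Mut. Of its 10 genes, 7 were higher in both Mut samples than in both WT samples, a pattern found in 28.3% of all tested genes. The osteoblast list (Alpl and Ibsp) summed to 172 and 70.0 RPKM in WT and 19.5 and 41.4 RPKM in Mut, and the macrophage list (Lyz2 and Cd68) to 20.97 and 17.8 RPKM in WT and 8.13 and 11.4 RPKM in Mut. Erythroid genes, led by Alas2 and Hba-a1, did not exceed 0.364 RPKM in sum. Senp6 was read 1125 and 2326 times in WT and 1839 and 1126 times in Mut, and since reads outside the deleted exons count on the gene, these values do not check the deletion. Xist was read 11354 times in Mut replicate 2 and at most 5 times elsewhere, so the Mut pair held RNA of both sexes. In bulk RNA, a smaller number of cells of a type and less RNA per cell cannot be told apart.

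Sequences upstream of transcription starts are shown for Trim28, Setdb1, Atf7ip, Uhrf1 and Suv39h1. For Setdb1 and Atf7ip both Mut samples were above both WT samples, as for 28.3% of tested genes. The edgeR quasi-likelihood test called neither. Uhrf1 and Suv39h1 carry a match to the E2F motif, a motif of genes induced at the entry into S phase. Each has 2 starts, of which the one shown has the match and the other has none. The sequences were taken from RefSeq on GRCm38.p6 and run 5′ to 3′ on the gene's strand. Each was kept to the stretch of the 250 bases before a start that holds no annotated exon of the gene. Capitals mark the E2F match.
Trim28 at chr7:13023902-13024151 on the plus strand: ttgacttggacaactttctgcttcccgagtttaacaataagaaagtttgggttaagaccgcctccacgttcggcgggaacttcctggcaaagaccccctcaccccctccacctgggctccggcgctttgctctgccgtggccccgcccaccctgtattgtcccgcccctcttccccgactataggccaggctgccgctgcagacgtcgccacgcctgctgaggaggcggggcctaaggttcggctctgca
Setdb1 at chr3:95357203-95357452 on the minus strand: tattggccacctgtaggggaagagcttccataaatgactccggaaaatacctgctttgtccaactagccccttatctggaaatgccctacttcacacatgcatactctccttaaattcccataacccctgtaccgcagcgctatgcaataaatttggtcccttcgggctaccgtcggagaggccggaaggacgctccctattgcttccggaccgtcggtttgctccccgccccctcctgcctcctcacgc
Atf7ip at chr6:136518601-136518801 on the plus strand: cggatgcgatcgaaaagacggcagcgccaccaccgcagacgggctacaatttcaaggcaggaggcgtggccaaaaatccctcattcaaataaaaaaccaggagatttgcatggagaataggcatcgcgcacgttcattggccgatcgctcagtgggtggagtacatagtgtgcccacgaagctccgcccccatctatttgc
Uhrf1 at chr17:56304063-56304312 on the plus strand: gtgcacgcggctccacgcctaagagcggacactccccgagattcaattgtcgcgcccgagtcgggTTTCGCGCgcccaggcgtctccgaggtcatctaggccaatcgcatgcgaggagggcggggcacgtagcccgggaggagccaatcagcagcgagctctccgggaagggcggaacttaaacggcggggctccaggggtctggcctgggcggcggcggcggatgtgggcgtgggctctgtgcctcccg
Suv39h1 at chrX:8074362-8074543 on the minus strand: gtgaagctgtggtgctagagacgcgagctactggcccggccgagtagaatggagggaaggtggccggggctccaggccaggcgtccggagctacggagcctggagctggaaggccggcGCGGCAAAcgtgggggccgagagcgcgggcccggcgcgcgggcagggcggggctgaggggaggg
The E2F motif was searched as TTTCCCGC, TTTCGCGC, TTTGGCGC and TTTGCCGC on both strands. It was found in 4 of the 17 windows of 250 bases of the 10 members, 1 window each for Dnmt1, Uhrf1, Suv39h1 and Cbx3, and in 1.86% of all 32851 windows. The match of Uhrf1 began 185 bases before its start, and that of Suv39h1 lay on the opposite strand, within 64 bases of its start. The windows of Trim28, Setdb1 and Atf7ip held none of these letters. A match describes the sequence and was not tied to binding.

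No difference in Trim28 mRNA between the genotypes was detected, and the interval of the difference was narrow. Trim28 (Entrez Gene 21849, GRCm38 chromosome 7 from 12999114 to 13031035) was at 129 and 144 RPKM in WT replicates 1 and 2 and at 139 and 134 RPKM in Mut replicates 1 and 2, from 8852 to 14041 reads a sample. Both Mut values lay between the WT values. Its log2 fold change was -0.04 (standard error, SE, 0.12, edgeR quasi-likelihood adjusted p = 0.910), with a 95% interval from -0.34 to 0.26, that is, from 0.789-fold to 1.19-fold. Among the 10 members Trim28 was the most abundant in every sample and varied least over the 4 samples, with a coefficient of variation of 4.62%. Among the genes of the other silencing lists whose deviations over the 4 samples were closest to those of Trim28 were Kdm1a, a lysine demethylase, and Phf8, a demethylase of histone H3, with root mean square differences of 0.037 and 0.050 on the log2 scale.

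None of the 10 members was called at an adjusted p of 0.05 by the edgeR quasi-likelihood test, which called 0% of the 14123 tested genes as higher and 0% as lower. All 10 passed the filter on low counts. At an unadjusted p under 0.05, 2 members were higher, Setdb1 and Atf7ip, and 0 were lower, against 9.29% and 6.28% of all tested genes. DESeq2 called 1 member, Atf7ip, as higher and 0 as lower, against 3.3% and 2.01% of the genes it tested. Setdb1 and Atf7ip were also the 2 members with both Mut samples above both WT samples, a pattern found in 28.3% of tested genes, and no member had the opposite pattern, found in 19.2%. The median log2 fold change was 0.02 over the 10 members and 0.01 over all tested genes. At an adjusted p under 0.1, 1 member (Atf7ip) was higher and 0 were lower, against 1.52% and 0.496% of all tested genes. An exact permutation test over 2 against 2 samples has 0.333 as its smallest possible two-sided p, and Setdb1 and Atf7ip reached that value.

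**Figure D1:**
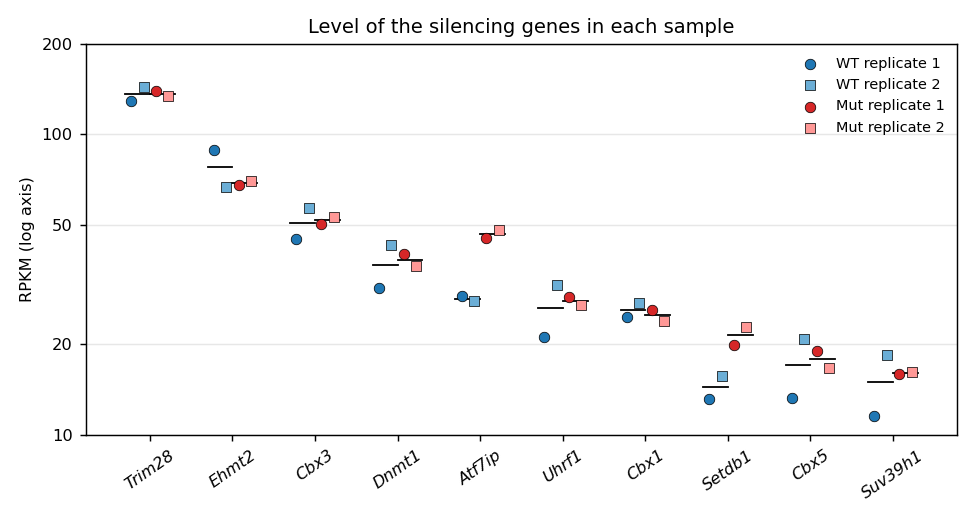
RPKM (log axis) of the 10 silencing genes in each of the 4 samples, with WT in blue, Mut in red and short black lines at the mean of each group (n = 2). Both Mut points lie above both WT points for Atf7ip and Setdb1, and Trim28 stays between 129 and 144 RPKM.

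Setdb1 and Atf7ip encode partners: ATF7IP binds the methyltransferase SETDB1, keeps it in the nucleus and protects it from degradation. Setdb1 (Entrez Gene 84505, GRCm38 chromosome 3 from 95323525 to 95357202) was at 13.2 and 15.7 RPKM in WT and at 19.98 and 22.9 RPKM in Mut. The groups did not overlap, and the gap between them was larger than the difference within either pair. The log2 fold change was 0.53 (SE 0.14, 95% interval 0.20 to 0.86, edgeR quasi-likelihood adjusted p = 0.151), or 1.44-fold, with 695 genes at a smaller p. Atf7ip (Entrez Gene 54343, chromosome 6 from 136506167 to 136610862) was at 29.0 and 27.8 RPKM in WT and at 45.1 and 48.1 RPKM in Mut. Both Mut samples were above both WT samples, and the samples of each genotype lay close together. The log2 fold change was 0.67 (SE 0.12, 95% interval 0.37 to 0.96, edgeR quasi-likelihood adjusted p = 0.0916), or 1.59-fold, with 185 genes at a smaller p. The adjusted p of Atf7ip was 0.00169 with DESeq2, 0.0481 without a filter on low counts in edgeR, 0.00831 and 0.0103 without WT replicates 1 and 2, and 0.1545 and 0.390 without Mut replicates 1 and 2. That of Setdb1 was 0.0552 with DESeq2, 0.0105 in edgeR without WT replicate 2 and between 0.104 and 0.893 without any other sample. On the opposite strand, exons of Setdb1 share 75 bases with Cers2 and 249 bases with Gm37500, and exons of Atf7ip share 83 bases with Gm44140. The summed levels of the chondrocyte and muscle lists did not overlap between the genotypes, as given above. The edgeR quasi-likelihood test called 0 genes of either list, and the WT samples differed widely for muscle. The part of these lists in the differences of Setdb1 and Atf7ip was not tested.

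Within each sample, the ratio of Setdb1 to Trim28 in RPKM was 0.102 and 0.109 in WT and 0.144 and 0.171 in Mut, without overlap. The ratio of Atf7ip to Setdb1 lay between 1.77 and 2.26 in the 4 samples, with overlap between the genotypes. These ratios are a description of 4 samples and carry no test.

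Neither of the other H3K9 methyltransferases was called, and both differed more between the WT samples than between the genotypes. Ehmt2 encodes G9a, which mono- and dimethylates H3K9 in euchromatin as a dimer with the product of Ehmt1. Ehmt2 (Entrez Gene 110147, chromosome 17 from 34898469 to 34914052) was at 89.0 and 67.1 RPKM in WT and at 68.1 and 70.3 RPKM in Mut. WT replicate 1 stood above the other 3 samples, which lay within 67.1 to 70.3 RPKM. The log2 fold change was -0.22 (SE 0.17, 95% interval -0.64 to 0.20, edgeR quasi-likelihood adjusted p = 0.613). It was 0.03 without WT replicate 1 and -0.46 without WT replicate 2, where the edgeR adjusted p was 0.0255, so its sign and call rested on which WT sample was used. The ratio of Ehmt2 to Ehmt1 in RPKM was 4.38 and 3.65 in WT and 3.63 and 3.77 in Mut.

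Suv39h1 encodes the methyltransferase that trimethylates H3K9 in pericentric heterochromatin. Suv39h1 (Entrez Gene 20937, chromosome X from 8061171 to 8074760) was at 11.6 and 18.4 RPKM in WT and at 15.9 and 16.2 RPKM in Mut, and both Mut values lay between those of WT. The log2 fold change was 0.06 (SE 0.21, 95% interval -0.44 to 0.56, edgeR quasi-likelihood adjusted p = 0.920). The Mut samples, of which replicate 2 expressed Xist, differed by 0.01 on the log2 scale for this X-linked gene. An annotated antisense transcript, Gm14820, covers 767 of the 5270 exon bases of Suv39h1, and the library protocol in the labels describes no strand marking, so its reads cannot be told apart from those of Suv39h1. The paralog Suv39h2 was lower in each sample, with Suv39h1 at 9.70 to 12.1 times its RPKM.

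The 3 HP1 genes encode chromodomain proteins that read methylated H3K9, HP1β from Cbx1, HP1γ from Cbx3 and HP1α from Cbx5. Cbx1 (Entrez Gene 12412, chromosome 11 from 96789127 to 96808640) was at 24.7 and 27.4 RPKM in WT and at 26.0 and 24.0 RPKM in Mut. Cbx3 (Entrez Gene 12417, chromosome 6 from 51470360 to 51483704) was at 44.8 and 56.8 RPKM in WT and at 50.5 and 53.1 RPKM in Mut. Cbx5 (Entrez Gene 12419, chromosome 15 from 103191544 to 103239816) was at 13.3 and 20.8 RPKM in WT and at 19.1 and 16.7 RPKM in Mut. The genotypes overlapped for all 3 genes, and WT replicate 1 was the lowest sample for Cbx3 and Cbx5. The log2 fold changes were -0.10 for Cbx1 (95% interval -0.43 to 0.24), -0.01 for Cbx3 (-0.36 to 0.33) and 0.03 for Cbx5 (-0.47 to 0.53), with edgeR quasi-likelihood adjusted p of 0.795, 0.977 and 0.958. Signs this close to 0 changed with the setting for Cbx3 and Cbx5.

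The shares of the 3 genes in HP1 mRNA overlapped between the genotypes. Cbx3 made up 54.1% of the summed HP1 RPKM in both WT samples and 52.8% and 56.6% in Mut. Cbx1 made up 29.8% and 26.1% in WT and 27.2% and 25.6% in Mut, and Cbx5 16.1% and 19.8% in WT and 19.95% and 17.8% in Mut. The sum itself was 82.8 and 105 RPKM in WT and 95.6 and 93.8 RPKM in Mut. RefSeq names 6 pseudogenes after Cbx3, and how reads shared with them were counted is not given in the sources used here, so the level of Cbx3 is less certain than the others.

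Dnmt1, the maintenance DNA methyltransferase, and Uhrf1, which reads hemimethylated DNA and brings DNMT1 to it, overlapped between the genotypes. Dnmt1 (Entrez Gene 13433, chromosome 9 from 20907209 to 20959888) was at 30.8 and 43.0 RPKM in WT and at 40.1 and 36.5 RPKM in Mut. Uhrf1 (Entrez Gene 18140, chromosome 17 from 56303321 to 56323486) was at 21.2 and 31.7 RPKM in WT and at 28.8 and 27.1 RPKM in Mut. For both genes WT replicate 1 was the lowest sample, WT replicate 2 the highest, and the Mut samples lay between them. The log2 fold changes were 0.02 for Dnmt1 (SE 0.17, 95% interval -0.40 to 0.43) and 0.04 for Uhrf1 (SE 0.19, 95% interval -0.41 to 0.50), with edgeR quasi-likelihood adjusted p of 0.975 and 0.939. Without WT replicate 1 both changed sign, to -0.18 and -0.20. The ratio of Uhrf1 to Dnmt1 in RPKM stayed between 0.689 and 0.742 in the 4 samples.

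**Figure D2:**
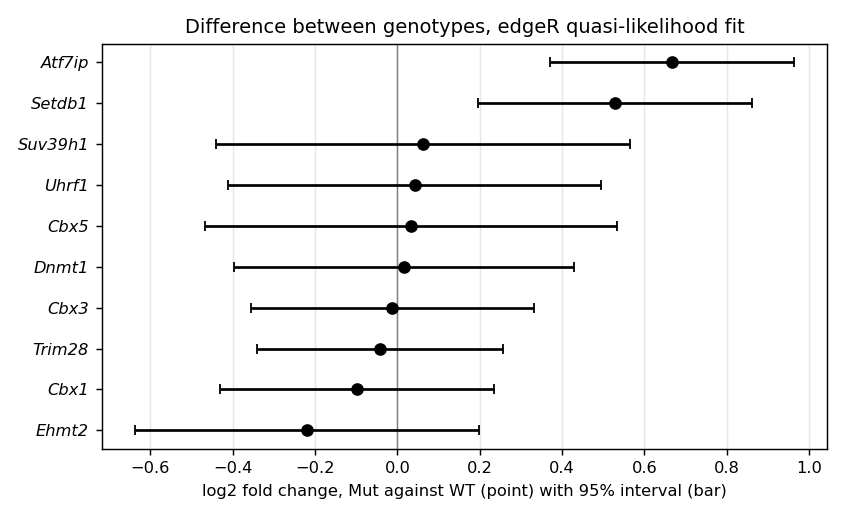
log2 fold change of each silencing gene between Mut and WT (points) with its 95% interval (bars) from the edgeR quasi-likelihood fit on 2 samples per genotype. The intervals of Atf7ip (0.37 to 0.96) and Setdb1 (0.20 to 0.86) lie above 0, the other 8 include 0, and none was past the threshold after adjustment over 14123 genes.

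Dnmt1, Uhrf1, Suv39h1 and Cbx5 varied over the samples in a shared order that did not follow the genotype. They were grouped by this order after their values were seen. On the log2 scale of counts normalized to library size (CPM), WT replicate 2 was above WT replicate 1 by 0.42 for Dnmt1, 0.52 for Uhrf1, 0.61 for Suv39h1 and 0.58 for Cbx5, against a median of 0.005 over all tested genes. Each of these differences within the WT pair was larger than the same gene's difference between the genotypes. The S phase and mitosis list, led by Pcna and Plk1, had the same order: its median deviation was -0.33 and 0.20 in WT and 0.12 and -0.0028 in Mut. WT replicate 1 was the lowest sample for 19 of its 20 genes, and its summed level was 495 and 754 RPKM in WT and 715 and 682 RPKM in Mut. By genotype, 18 of the 20 genes overlapped. Both Mut samples were above both WT samples for 2 and below for 0, against 28.3% and 19.2% of all tested genes. The edgeR quasi-likelihood test called 0, with 1 higher at an unadjusted p under 0.05, against 9.29% of all tested genes. DESeq2 called 1 higher, against 3.3% of the genes it tested. The part of cell cycling in the levels of these members was not tested. Cbx1, Cbx3 and Trim28 too were highest in WT replicate 2, and in RPKM Trim28 was also lowest in WT replicate 1. On the log2 CPM scale Cbx3, by 0.29, and Setdb1, by 0.19, were also lowest in WT replicate 1. This made it the lowest sample for 6 of the 10 members. The share of all tested genes with WT replicate 1 lowest is not given here, so these counts have no background. Trim28 differed by 0.10 and Cbx1 by 0.09 between the WT samples, Ehmt2 ran in the opposite direction with -0.47, and Atf7ip with -0.12.

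**Figure D3:**
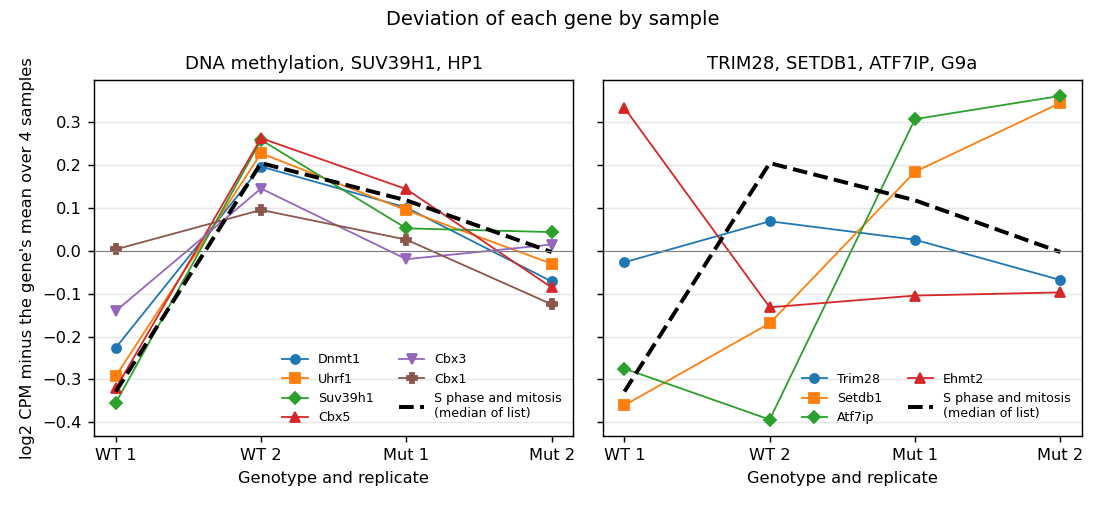
Deviation of each gene's log2 CPM from its mean over the 4 samples, by genotype and replicate, with thin lines that only join the points of a gene and a dashed line at the median of the S phase and mitosis list. On the left, all genes but Cbx1 are lowest in WT replicate 1 and highest in WT replicate 2, as the dashed line is. On the right, Setdb1 and Atf7ip are above 0 in both Mut samples alone.

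By level per gene length, the members fell into an order that held over the samples at its top. Trim28 with a mean of 137 RPKM over the 4 samples, Ehmt2 with 73.6 RPKM and Cbx3 with 51.3 RPKM held the top places in every sample, and their ranges did not overlap. Dnmt1 (37.6 RPKM) and Atf7ip (37.5 RPKM) overlapped and changed places, with Dnmt1 above Atf7ip in both WT samples and below it in both Mut samples. Uhrf1 (27.2 RPKM) and Cbx1 (25.5 RPKM) also overlapped. Setdb1 (17.9 RPKM), Cbx5 (17.5 RPKM) and Suv39h1 (15.5 RPKM) made up the lower end, where Setdb1 was below Cbx5 in both WT samples and above it in both Mut samples. Trim28 exceeded 96.8% of the tested genes in mean RPKM, and Suv39h1 exceeded 68.3%. Reads covered at least 89.99% of the length of each member in each sample.

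The other genes of the silencing pathway were taken from 7 lists with 58 genes, of which 57 passed the filter and Kdm4d did not. The edgeR quasi-likelihood test called 0 of the 57 at an adjusted p of 0.05, with 5 higher and 2 lower at an unadjusted p under 0.05. DESeq2 called 3 higher and 1 lower. Atf7ip2, which passed the filter only through the Mut samples, is among the 5 and among the 3. Among all tested genes 9.29% were higher and 6.28% lower at an unadjusted p under 0.05, and 3.3% and 2.01% with DESeq2. Both Mut samples were above both WT samples for 14 of them and below for 9. The median log2 fold change of the 57 genes was 0.02. These shares stand against 28.3% above and 19.2% below among all tested genes.

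Among the relatives of TRIM28 and its zinc finger partners, 4 of 5 genes were higher in both Mut samples and 0 were called by edgeR. That pattern was found in 28.3% of all tested genes. Trim24, a TRIM family co-regulator of nuclear receptors that also acts on p53, was at 6.43 and 6.56 RPKM in WT and at 11.7 and 11.9 RPKM in Mut. The genotypes did not overlap, with a log2 fold change of 0.82 (SE 0.12, edgeR quasi-likelihood adjusted p = 0.0833; DESeq2 adjusted p = 0.000182). Trim28 was 20.1 and 21.9 times as abundant as Trim24 per length in WT and 11.9 and 11.2 times in Mut. Zfp809, the KRAB zinc finger protein that brings TRIM28 to retroviral primer binding sites, was at 5.99 and 6.36 RPKM in WT and at 8.94 and 9.97 RPKM in Mut, a log2 fold change of 0.57 (SE 0.17, edgeR quasi-likelihood adjusted p = 0.185). The edgeR adjusted p of Trim24 was 0.0256 without a filter on low counts, 0.00324 and 0.00186 without WT replicates 1 and 2, and 0.0966 and 0.189 without Mut replicates 1 and 2. That of Zfp809 was 0.0495 without WT replicate 2 and between 0.128 and 0.9997 without any other sample.

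The HUSH list, a complex that works with SETDB1 on retroelements, had 5 tested genes with 0 called. Atf7ip2, a paralog of Atf7ip, was read 6 and 9 times in WT and 48 and 54 times in Mut, that is, at 0.110 and 0.133 RPKM against 0.599 and 0.740 RPKM. Both Mut samples were above both WT samples, with a log2 fold change of 2.39 (SE 0.43, edgeR quasi-likelihood adjusted p = 0.0885; DESeq2 adjusted p = 0.0365). Its edgeR adjusted p was 0.0399 without a filter, 0.0352 without WT replicate 1 and 0.0155 without WT replicate 2. Atf7ip2 passed the filter only through the Mut samples, could not be tested with 10 counts in every sample or without either Mut sample, and its count among the pathway genes is no support for a difference. Atf7ip stayed at least 65.0 times as abundant per length in every sample. Pphln1, which encodes a HUSH subunit, had the next largest difference, with a log2 fold change of 0.13 (edgeR quasi-likelihood adjusted p = 0.775).

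The list of other DNA methylation, oxidation and reading genes had 5 of 11 genes lower and 1 higher in both Mut samples. These patterns were found in 19.2% and 28.3% of all tested genes. The edgeR quasi-likelihood test called 0 of the 11, and their median log2 fold change was -0.20. Mbd1, a reader of methylated CpG that binds ATF7IP, was at 8.12 and 9.35 RPKM in WT and at 14.8 and 14.7 RPKM in Mut. The genotypes did not overlap, and the log2 fold change was 0.72 (SE 0.14, edgeR quasi-likelihood adjusted p = 0.0961; DESeq2 adjusted p = 0.00846). Its edgeR adjusted p was 0.0493 without a filter on low counts, 0.0197 and 0.00366 without WT replicates 1 and 2, and 0.2502 and 0.327 without Mut replicates 1 and 2. Dnmt3l, a cofactor of the new DNA methyltransferases in germ cells, was read 18 and 28 times in WT and 15 and 19 times in Mut, with a log2 fold change of -0.78 (SE 0.43, edgeR quasi-likelihood adjusted p = 0.450).

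In the remaining pathway lists 0 genes were called by edgeR. Of the other H3K9 and H4K20 methyltransferases and their partners, 1 of 8 genes was higher and 1 lower in both Mut samples. Among all tested genes these shares were 28.3% and 19.2%. The lower gene was Suv420h2, which encodes an H4K20 methyltransferase that HP1 brings to heterochromatin, at 16.9 and 12.3 RPKM in WT and at 8.92 and 9.37 RPKM in Mut. Its log2 fold change was -0.72 (SE 0.20, edgeR quasi-likelihood adjusted p = 0.164; DESeq2 adjusted p = 0.0471), and Zfp644, a partner of G9a, had 0.22 (edgeR quasi-likelihood adjusted p = 0.538). For Suv420h2 the edgeR adjusted p was 0.000652 without WT replicate 2 and 0.114 without WT replicate 1, where the log2 fold change was -0.44, and it was 0.342 and 0.464 without Mut replicates 1 and 2. Of the 8 histone chaperones and remodellers, H3f3b, which encodes histone H3.3, was at 173 and 204 RPKM in WT and at 245 and 278 RPKM in Mut, a log2 fold change of 0.43 (edgeR quasi-likelihood adjusted p = 0.208; 0.0279 without WT replicate 2 and 0.240 to 0.9997 without any other sample). Daxx, the chaperone that deposits H3.3 with ATRX, had a log2 fold change of -0.26 (edgeR quasi-likelihood adjusted p = 0.463). The 11 NuRD genes lay between -0.17 for Mbd3 and 0.22 for Chd3. The 9 tested H3K9 demethylases lay between -0.31 for Kdm4b and 0.29 for Kdm4c.

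**Figure D4:**
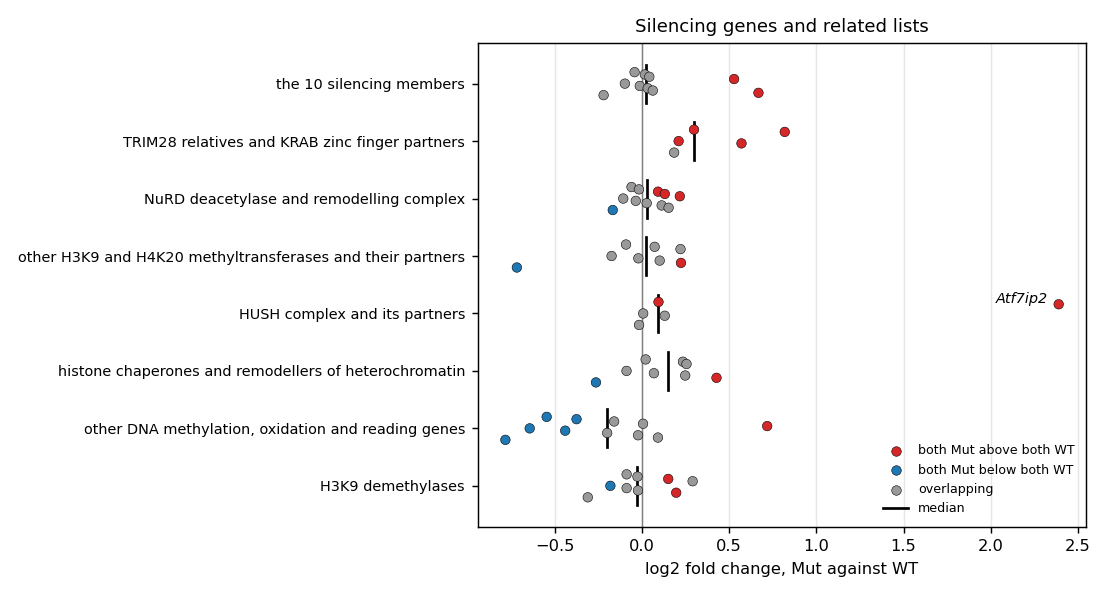
log2 fold change between Mut and WT of each tested gene, by list, with the median of a list as a black line and the colour showing whether both Mut samples lay above (red) or below (blue) both WT samples. Of the 57 pathway genes 49 lie within 0.5 of 0. Atf7ip2, at 2.39, passed the filter on low counts only through the Mut samples, where it is high.

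Germline genes are a known target of this machinery, and 28 of them made up a list of genes that it silences in somatic cells. Of these, 2 had no read in any sample, 20 stayed below the filter on low counts and 6 were tested, so the tested genes are those with some expression. The edgeR quasi-likelihood test called 0 of the 6, with 3 higher at an unadjusted p under 0.05, against 9.29% of all genes tested. DESeq2 gave no adjusted p for Ddx4 and Piwil2. It called 2 higher, Stag3 and Tdrd9, against 3.3% of the genes it tested. Ddx4, Brdt and Piwil2, the tested genes past neither threshold, had log2 fold changes of -0.37, -0.09 and -0.01. Stag3, a cohesin subunit of meiosis, was read 12 and 17 times in WT and 105 and 142 times in Mut, with a log2 fold change of 2.73 (SE 0.37, edgeR quasi-likelihood adjusted p = 0.0789). Tdrd9, a helicase of the piRNA pathway, was read 2 and 4 times in WT and 50 and 60 times in Mut, with a log2 fold change of 3.79 (SE 0.51, edgeR quasi-likelihood adjusted p = 0.0789). It passed the filter only through the Mut samples, where it is high, so its place among the tested genes is no support for the difference. Tex15, a partner of piRNA-directed silencing, was read 30 and 44 times in WT and 119 and 100 times in Mut (log2 fold change 1.20, edgeR quasi-likelihood adjusted p = 0.133). For Stag3, Tdrd9 and Tex15 both Mut samples were above both WT samples, a pattern found in 28.3% of all tested genes. Below the filter, Tdrd1 (4 and 5 reads in WT, 8 and 16 in Mut) and Gpat2 (1 and 0 in WT, 10 and 3 in Mut) also had it. Sycp3 had the opposite pattern in RPKM. Dazl, Mael and Sycp3 had at most 3 reads in any sample. With all samples, the adjusted p of Stag3 was 6.76e-05 with DESeq2, and in edgeR 0.0132 without a filter and 0.0463 with a replicate block. In the other settings with all samples it lay between 0.0550 (edgeR, total counts only) and 0.0996 (limma on log2(RPKM + 1)). Its log2 fold change ran from 2.44 to 2.97 when 1 sample was left out.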

How the data were processed

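Total RNA was extracted from passage 1 cultures, and mRNA was enriched on oligo(dT) beads and sequenced by a service. The authors deposited for each sample the count of reads per gene without normalization, the RPKM (the count over the gene length in the file and the total on genes) and, in percent, how much of the length reads covered. Submitters' processing notes name SAMtools and mm9, while the aligner and the counting tool are not given in the sources used here. A gene absent from a sample's list was given a count of 0. Positions are those of GENCODE M21 on GRCm38, matched by Entrez Gene identifier, since the files hold no coordinates.

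From the counts, edgeR 4.0.16 (R 4.3.3) was run with TMM normalization and the robust quasi-likelihood test on 14123 genes (10 counts or more in 2 samples or more), and p was adjusted over them by Benjamini-Hochberg. Standard errors came from the F statistic. In the sample with fewest reads, a 2 kb gene with 10 counts has 0.238 RPKM. Intervals cover the spread the model estimates. The alternatives were DESeq2 1.42.0, other size factors, other filters, limma 3.58.1 on log2(RPKM + 1) and log2(RPKM + 0.1), a replicate block and leaving out each sample. The scripts were tested on simulated data. Chi-square over degrees of freedom was 48.6 for the WT pair and 23.7 for the Mut pair, above sampling noise, so each sample counted once.

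The members and lists were chosen with earlier results of these data known. Named were all members, the 2 genes of each pathway list and the 3 germline genes with the largest changes where none was called, and the 2 most abundant genes of each marker list. Genes of the Polycomb lists, and those with few reads among germline genes, were named after their values were seen, as were the other tested germline genes. Some genes that the rule covers are not reported here.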

Additional observations from a re-analysis of the deposited data

How the results depend on the processing

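Over the 12 alternative settings, the log2 fold change was 0.43 to 0.61 for Setdb1 and 0.58 to 0.72 for Atf7ip. Their groups did not overlap, so leaving out 1 sample could hardly change the direction. The other settings used the same samples, so the kept direction is no support for a difference. With all samples, the adjusted p of Setdb1 ran from 0.0552 (DESeq2) to 0.190 (limma on log2(RPKM + 1)). That of Atf7ip ran from 0.00169 to 0.116 with the same tools. Trim28 was not called in any of the 12 settings and was at 0.00024 and 0.00025 with limma on log2(RPKM + 1) and log2(RPKM + 0.1). Cbx3 changed sign with these (0.0366 and 0.0374) and with total counts only (0.0276).

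Of 14123 genes, the edgeR fit called 0 as higher and 0 as lower, with 1312 and 887 at an unadjusted p under 0.05. The numbers called were 439 and 267 of 13301 genes with DESeq2 and 225 and 61 of 18298 without a filter. They were 6 and 2 of 14123 with total counts only, and 84 and 33 of 14123 with the replicate block. Whether samples of the same replicate number belong together is not given in the sources used here. The replicate differences correlated across genes by -0.0422 between the genotypes, and 1 difference per genotype cannot decide the pairing. The block called 0 members and 0 pathway genes, but 2 germline genes, Stag3 (edgeR adjusted p = 0.0463) and Tdrd9 (0.0468). Tdrd9 passed the filter only through the Mut samples, so its call is no support for a difference. Pathway genes called as higher numbered 3 with DESeq2 and 3 without a filter, Atf7ip2 among them in both, and 1 was lower with DESeq2. Members called as higher numbered 1 with DESeq2 and 1 without a filter. The causes were not tested.

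Leaving out 1 sample, the calls ranged from 68 to 1296 higher and from 37 to 1444 lower genes, both highest without WT replicate 2, where 1 WT sample is assumed to vary like the Mut pair. They ranged from 0 to 8 higher and 0 to 4 lower pathway genes, and from 0 to 2 higher and 0 to 1 lower members. The log2 fold changes ranged from -0.15 to 0.11 for Cbx3, -0.23 to 0.33 for Cbx5, -0.18 to 0.22 for Dnmt1, -0.20 to 0.30 for Uhrf1, -0.22 to 0.38 for Suv39h1, -0.46 to 0.026 for Ehmt2 and -0.094 to 0.0093 for Trim28.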

Other observations

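Polycomb genes, the other main silencing system, were looked at in 3 lists chosen after the values of the silencing members were seen. All 25 genes passed the filter, and the edgeR quasi-likelihood test called 0. At an unadjusted p under 0.05, 0 were higher and 1 was lower, against 9.29% and 6.28% of all tested genes. DESeq2 called 0, against 3.3% higher and 2.01% lower among the genes it tested. Both Mut samples were above both WT samples for 9 of the 25 and below for 6, against 28.3% and 19.2% of all tested genes. Among the chromodomain genes, which read methylated H3K27 and are related to the HP1 genes, the log2 fold change was -0.38 for Cbx6 and 0.53 for Cbx7. Cbx6 was at 65.7 and 43.8 RPKM in WT and at 43.1 and 43.5 RPKM in Mut, so that WT replicate 1 stood above the other samples, as it did for Ehmt2. Ezh2, the H3K27 methyltransferase, was at 9.84 and 14.01 RPKM in WT and at 14.8 and 15.4 RPKM in Mut, with WT replicate 1 lowest, a log2 fold change of 0.30 (SE 0.18, edgeR quasi-likelihood adjusted p = 0.493). Jarid2, which guides that enzyme's complex to its sites, was at 5.53 and 4.10 RPKM in WT and at 3.53 and 3.15 RPKM in Mut, a log2 fold change of -0.57 (SE 0.20, edgeR quasi-likelihood adjusted p = 0.241).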
